A study of Mus musculus with 4 samples.

Results

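The chemokine genes Ccl1, Ccl3, Ccl4, Ccl5, Ccl20, Xcl1, Cxcl10, Cxcl3 and Cxcl2 were followed in CD4 T cells of the gut. They are 9 of the 31053 genes in the count matrices and were taken by name. The cells were living CD45+CD3+CD4+ lymphocytes from the lamina propria of the small intestine (mice of wild-type genotype, strain C57Bl/6), for which the labels name no treatment, with Peyer's patches cut away and the tissue digested with collagenase D. The 4 libraries of the Chromium 5′ chemistry (numbered 1 to 4) made up 1 group, and the labels do not say that each held exactly 1 mouse. The p-values therefore measure the spread between libraries, part of which may be technical. Within each library, cells were divided by the first of these transcripts they held: at least 1 UMI (unique molecular identifier, 1 counted transcript) of Foxp3, of Il17a, of Ifng or of Cd8a, then at least 10 UMIs of Gzma, and otherwise the rest gate.

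Chemokines are small secreted proteins that bind G protein-coupled receptors and draw leukocytes along a gradient. Ccl3 and Ccl5 bind Ccr1. Xcl1 binds Xcr1 on cross-presenting dendritic cells, Ccl1 binds Ccr8 and Cxcl10 binds Cxcr3. Cxcl2 and Cxcl3 bind Cxcr2, the main neutrophil receptor of this family, and Ccl20 binds Ccr6. T cells release several of them within hours of antigen contact, while Cxcl10 is a classical target of interferon and Ccl20, Cxcl2 and Cxcl3 are better known from epithelial and myeloid cells.

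The genes lie in clusters. On the GRCm38 assembly, Ccl3 (chromosome 11, 83647844 to 83649355) and Ccl4 (83662584 to 83664683) are 13.2 kb apart on opposite strands, with Ccl5 117 kb from Ccl3. Cxcl3 (chromosome 5, 90786103 to 90789600) and Cxcl2 (90903871 to 90905938) are 114 kb apart. The promoters of Cxcl2, Cxcl3 and Cxcl10 are shown because their genes had the most restricted or the most interferon-linked patterns in what follows. They come from RefSeq on GRCm38.p6, run 5′ to 3′ from 250 bases before to 50 bases after the gene start, and carry in capitals the matches to 3 motifs searched on both strands: kappaB, the interferon element core (GAAA, then any 2 bases, then GAAA) and the AP-1 site TGANTCA. Cxcl2 lies at chr5:90903649-90903948, plus strand, Cxcl3 at chr5:90785851-90786150, plus strand and Cxcl10 at chr5:92348840-92349139, minus strand.
Cxcl2: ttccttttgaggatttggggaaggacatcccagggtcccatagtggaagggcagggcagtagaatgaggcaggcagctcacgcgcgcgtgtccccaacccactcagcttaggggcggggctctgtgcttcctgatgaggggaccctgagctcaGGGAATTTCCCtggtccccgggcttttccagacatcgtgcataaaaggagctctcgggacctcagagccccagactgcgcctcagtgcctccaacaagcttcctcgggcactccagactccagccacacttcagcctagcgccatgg
Cxcl3: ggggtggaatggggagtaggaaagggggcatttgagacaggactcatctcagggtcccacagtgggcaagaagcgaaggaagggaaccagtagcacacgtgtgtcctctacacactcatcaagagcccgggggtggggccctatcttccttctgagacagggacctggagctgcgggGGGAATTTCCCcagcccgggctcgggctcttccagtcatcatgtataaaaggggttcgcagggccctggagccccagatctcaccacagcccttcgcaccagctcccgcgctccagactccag
Cxcl10: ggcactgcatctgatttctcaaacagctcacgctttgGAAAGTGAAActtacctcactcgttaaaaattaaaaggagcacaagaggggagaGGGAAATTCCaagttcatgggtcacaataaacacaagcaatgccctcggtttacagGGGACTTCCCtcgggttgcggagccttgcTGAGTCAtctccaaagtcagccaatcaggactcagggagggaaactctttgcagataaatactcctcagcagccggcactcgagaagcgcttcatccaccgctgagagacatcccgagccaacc
Cxcl2 and Cxcl3 each held the same kappaB run, read as 2 overlapping matches, and no match to the other motifs. Cxcl10 held 2 separate kappaB matches, 1 interferon element core and 1 AP-1 site. Of all 32851 promoters of this length, 4.51% held kappaB, 3.44% the interferon element core and 7.81% the AP-1 site. Ccl20 also held 1 kappaB match, and the windows of Ccl1, Ccl3 and Xcl1 held none of the 3 motifs. The Cxcl3 and Cxcl2 windows were identical at 57.6% of aligned positions, against 41.9% to 47.9% for the other pairs among the 7 promoters. A match is a string of letters and not a binding site, and no match says only that these letters are not in the window.

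After filtering, 21501 of 22904 barcodes were analysed, 5149 to 5626 per library, with a median of 3630 to 4173.5 UMIs per cell. The Foxp3 gate held 1535 cells (7.11% ± 1.21 of a library, SD, n = 4 libraries), the Il17a gate 586 (2.72% ± 1.05), the Ifng gate 6599 (30.7% ± 1.60), the Cd8a gate 318 (1.5% ± 1.10), the Gzma-rich gate 1553 (7.21% ± 0.385) and the rest gate 10910 (50.7% ± 1.49). Library 4 stood apart in the Cd8a gate, with 3.15% of its cells against 0.826% to 1.07% in the others. All gates carried T cell markers: Cd3d, Cd3e, Cd3g, Trac, Trbc2 and Cd4 summed to 4802 to 6299 CPM (UMIs of the gene per 1000000 UMIs of the sum) as means per gate. Plasma cell markers (Jchain, Mzb1, Sdc1 and Igha) averaged 431 CPM in the Foxp3 gate (10.9 to 1417 by library), 405 in Ifng and 460 in rest. In the other gates they averaged 5.87 to 20.8 CPM. Igha was found in 1.56% of Foxp3-gate, 0.621% of Ifng-gate and 0.431% of rest-gate cells. Their part in the chemokine levels was not tested. Cells of the Cd8a gate held Cd4 at 344 ± 44.1 CPM, close to the 358 ± 13.4 CPM of the rest gate. Median depth ran between 3553 UMIs in the Cd8a gate and 5215.5 in the Il17a gate, and 268 barcodes occurred in 2 libraries and 2 in 3. Leaving out cells with shared barcodes ended none of the gate calls of the chemokines. In these sums, fewer cells with a transcript and less of it per cell cannot be told apart.

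Ccl5 was the most abundant of the 9 on the UMI scale, which counts 1 transcript end per molecule. It stood at 2943, 2625, 3589 and 4372 CPM in libraries 1 to 4 and was found in 72.8% of cells. Xcl1 followed at 283, 375, 337 and 372 CPM, Cxcl10 at 234, 215, 179 and 154 CPM and Ccl4 at 107, 149, 164 and 272 CPM. The other 5 were rare. Ccl1 had 5.69, 15.1, 9.94 and 28.8 CPM, Ccl3 3.54, 7.63, 8.81 and 22.9 CPM, Cxcl2 5.95, 9.78, 14.8 and 7.81 CPM and Cxcl3 7.88, 2.61, 5.60 and 0.122 CPM. Ccl20 had 30 UMIs in 11 cells in all. Library 4 was highest for Ccl1, Ccl3, Ccl4 and Ccl5 and lowest for Cxcl10 and Cxcl3, so libraries did not rank alike for all genes.

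The chemokines differed in how many cells held them. The 1% of cells with most of a gene held 12.8% of Ccl5 UMIs, 33.7% of Xcl1, 41.3% of Cxcl10, 60.2% of Ccl4, 86.1% of Ccl3 and 99.5% of Ccl1 UMIs (means of 4 libraries). For Cxcl2, Cxcl3 and Ccl20 that share was 100%. Ccl1 reached 130 UMIs in 1 cell and Ccl4 327, while 48.7% of the cells with Ccl1 held 1 UMI. With every cell thinned to 2000 UMIs, 66.1% ± 2.93 of cells had a Ccl5 UMI, 23.4% ± 2.67 Xcl1, 11.7% ± 2.85 Cxcl10 and 7.63% ± 2.60 Ccl4 (SD, n = 4). As a background of free RNA, the B-lineage cells (at least 2 UMIs of Cd79a, a B cell receptor chain) were read at 2000 UMIs. Of 22 such cells, 36.4% had a Ccl5 UMI (95% exact interval 17.2% to 59.3%), and 13.6% each had Xcl1, Cxcl10 and Ccl4 (2.91% to 34.9%), and 9.09% had Ccl3. Their median depth before thinning was 15569 UMIs, above that of any library, and whether they are single cells was not tested. Shares at or below these are not read as expression on their own. None of the 22 had Ccl1, Cxcl2, Cxcl3 or Ccl20, which allows a share of up to 13.6%. Of all thinned cells, 23.7% had none of the 9 chemokines, 47.2% had 1, 24% had 2 and the others 3 to 6.

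**Figure D1:**
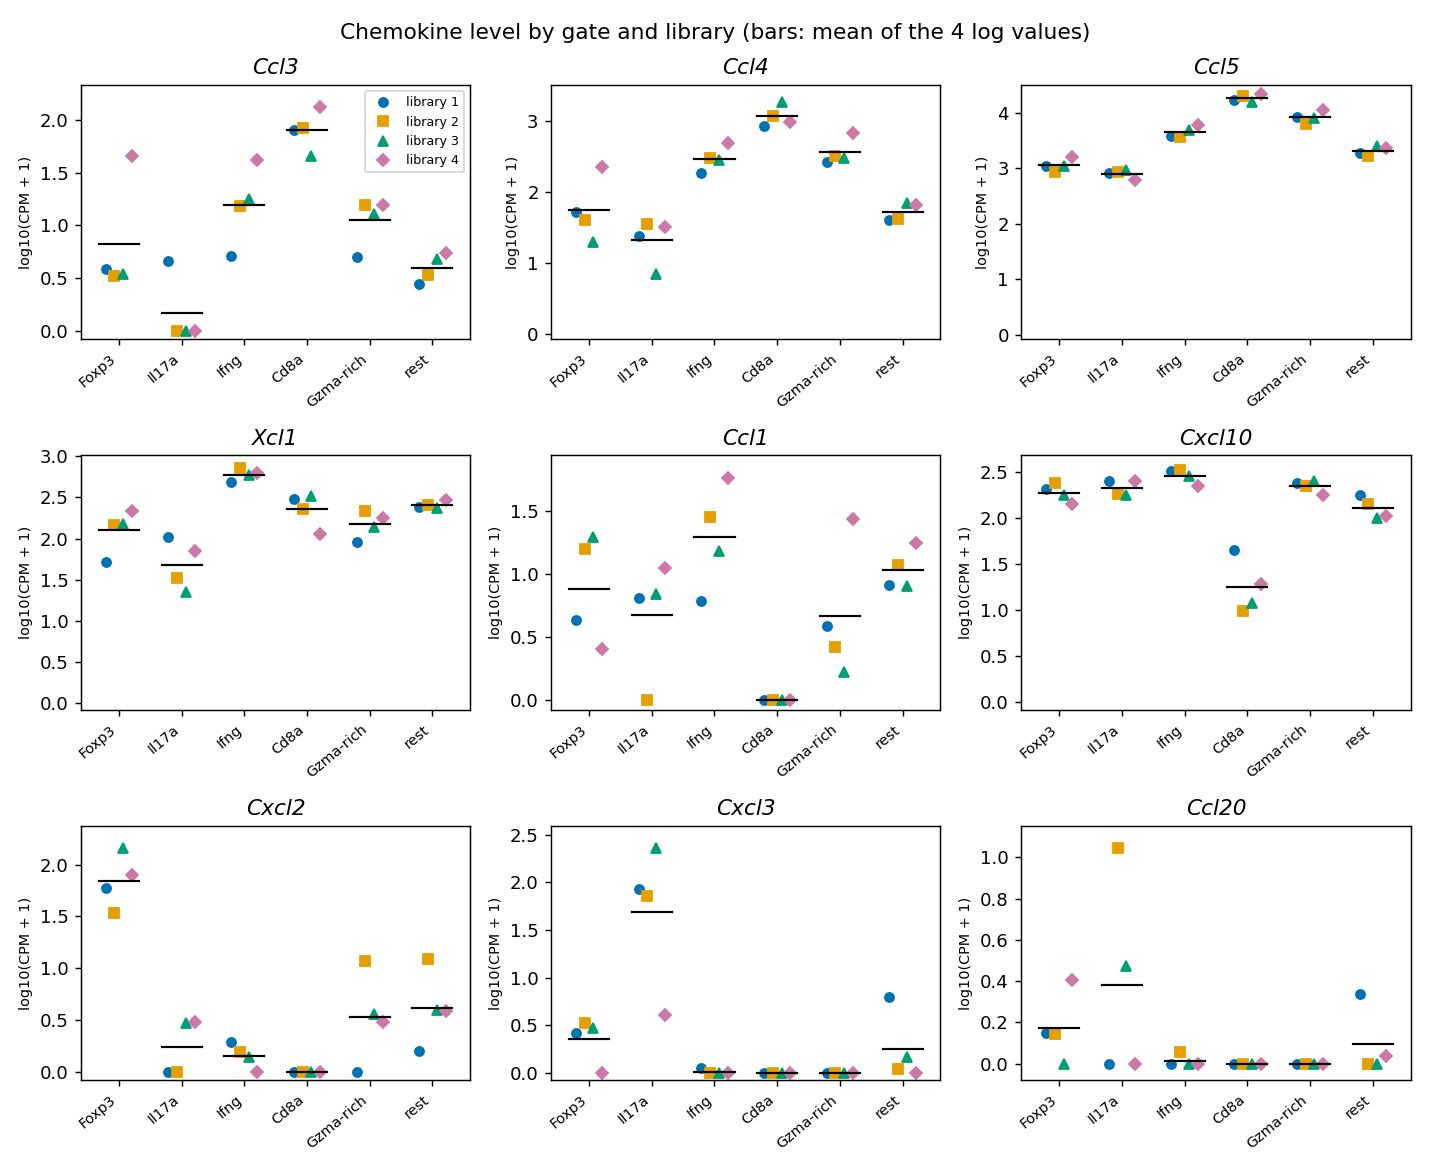
Level of each chemokine, as log10(CPM + 1), in the 6 gates; each symbol is 1 of the 4 libraries and the bar is the mean of the 4 log values. Ccl3, Ccl4 and Ccl5 peak in the Cd8a gate, Xcl1 in the Ifng gate, Cxcl2 in the Foxp3 gate and Cxcl3 in the Il17a gate.

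Ccl3, Ccl4 and Ccl5, which draw T cells and monocytes, were all highest in the Cd8a gate. Ccl5 had 16849, 19523, 15710 and 21986 CPM in the Cd8a gate, against 1902, 1640, 2496 and 2273 CPM in the rest gate. The order below it was Gzma-rich (8454 ± 2134 CPM), Ifng (4535 ± 1067), rest (2078 ± 381), Foxp3 (1156 ± 297) and Il17a (800.4 ± 127), and each gate differed from the next in this order (edgeR quasi-likelihood tests, adjusted p at most 0.0124). Of all genes, 5.05% were called in the Cd8a gate over the Gzma-rich gate, 4.78% in Ifng over Gzma-rich and 27.6% in Foxp3 over Il17a. Its share of positive cells at 2000 UMIs was 96.3% ± 2.86 in the Cd8a gate, 32.8% ± 4.83 in the Foxp3 gate and 60.9% ± 3.04 in the rest gate. The Foxp3 share was below that of the B-lineage cells.

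Ccl4 had 847, 1182, 1836 and 977 CPM in the Cd8a gate, against 38.6, 39.9, 69.4 and 64.4 CPM in the rest gate. Every Cd8a value lay above every value of the other 5 gates. Gzma-rich cells (389.8 ± 192 CPM) and Ifng cells (311 ± 126 CPM) came next and did not differ beyond their spread. Ifng cells were above Foxp3 cells (adjusted p = 2.03e-05, edgeR, where 31.6% of all genes were called). No test passed between neighbours among the Foxp3 gate (83.5 ± 95.4 CPM), the rest gate (53.1 ± 16.1 CPM) and the Il17a gate (23.5 ± 12.6 CPM). At 2000 UMIs, 44.9% ± 7.32 of Cd8a-gate cells held Ccl4, against 3.20% ± 0.887 of rest-gate cells.

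Ccl3 was lower in level, with 79.4, 83.2, 44.1 and 131 CPM in the Cd8a gate against 1.76, 2.36, 3.82 and 4.48 CPM in the rest gate. Ifng cells had 4.08, 14.5, 16.7 and 40.6 CPM and were below the Cd8a gate (adjusted p = 0.00236, edgeR, where 7.18% of all genes were called). In the Foxp3 gate Ccl3 had 2.87, 2.34 and 2.48 CPM in libraries 1 to 3 and 44.1 CPM in library 4. That value came from 86 UMIs in 7 cells, 68 of them in 1 cell.

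In the Cd8a gate over the rest gate, 4 of the 8 chemokines that passed the filter on low counts were called at an adjusted p under 0.05, where 9.48% of all genes tested were called, 3.93% higher and 5.55% lower (edgeR, Benjamini-Hochberg over 9611 genes). Ccl20 did not pass that filter in any comparison. Cxcl2 and Cxcl3 passed it mainly through the Foxp3 gate and the Il17a gate, which gave 4 of the 6 and 3 of the 4 sums past the filter's 5.28 CPM, so their folds in those gates are a description. Ccl3 passed it through the Cd8a (4 sums), Ifng (3), Gzma-rich (3) and Foxp3 (1) gates, with 0 sums in the rest gate. Its folds over the rest gate in those gates are a description too, although it is counted among the chemokines called. Ccl3 had a fitted log2 fold change of 4.60 ± 0.53 (SE). Ccl4 was higher by 4.43 ± 0.34 on the log2 scale (adjusted p = 5.82e-10, edgeR) and Ccl5 by 3.12 ± 0.14 (adjusted p = 1.55e-14, edgeR). All were higher in 4 of 4 libraries. Cxcl10 was the called gene that fell, by 2.66 ± 0.36 in 4 of 4 libraries (log2 fold change -2.66, adjusted p = 6.87e-06, edgeR). Ccl1, Cxcl2 and Cxcl3 had no UMI in the 318 Cd8a-gate cells, and none of them was called. With 3 UMIs over the gate as the floor, Ccl1 would be at least 4.31-fold and Cxcl2 at least 1.82-fold below the rest gate. That floor takes UMIs as independent, but few cells held them. At full depth, 0.691% of rest-gate cells had Ccl1 and 0.332% Cxcl2 (means of 4 libraries). No lower level is read from the floor. All 5 killing genes apart from Gzma (Gzmb, Gzmk, Prf1, Nkg7 and Klrd1) were higher in this gate as well, with a median log2 fold change of 1.87 against -0.0047 for all genes. The gate rule takes cells with at least 10 Gzma UMIs out of the rest gate, while the Foxp3, Il17a, Ifng and Cd8a gates keep theirs. Gzma averaged 185 CPM in the rest gate, 2072 in the Ifng gate, 2487 in the Foxp3 gate and 10262 in the Cd8a gate. This enters every fold over the rest gate, and its part was not tested.

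In the Gzma-rich gate over the rest gate, 4 of 8 chemokines were called, all higher, where 13.5% of all genes were called in either direction and 7.53% were higher. Ccl4 was higher by 2.81 ± 0.31 (adjusted p = 2.82e-07, edgeR), Ccl5 by 2.0 ± 0.13, Ccl3 by 1.87 ± 0.55 and Cxcl10 by 0.77 ± 0.14 on the log2 scale. Ccl3 had passed the filter in part through this gate, so its fold is a description. Its call was lost without library 2, without library 3, without the library block, with the robust prior and under DESeq2. In these fits its adjusted p lay between 0.0640 and 0.201 (edgeR and DESeq2). Xcl1 had 90.3, 215, 138 and 178 CPM here against 238, 258, 237 and 294 CPM in the rest gate. It missed the threshold (log2 fold change -0.76 ± 0.26, adjusted p = 0.0555, edgeR) and passed it, for example, at a common depth of 2000 UMIs (adjusted p = 0.00109).

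**Figure D2:**
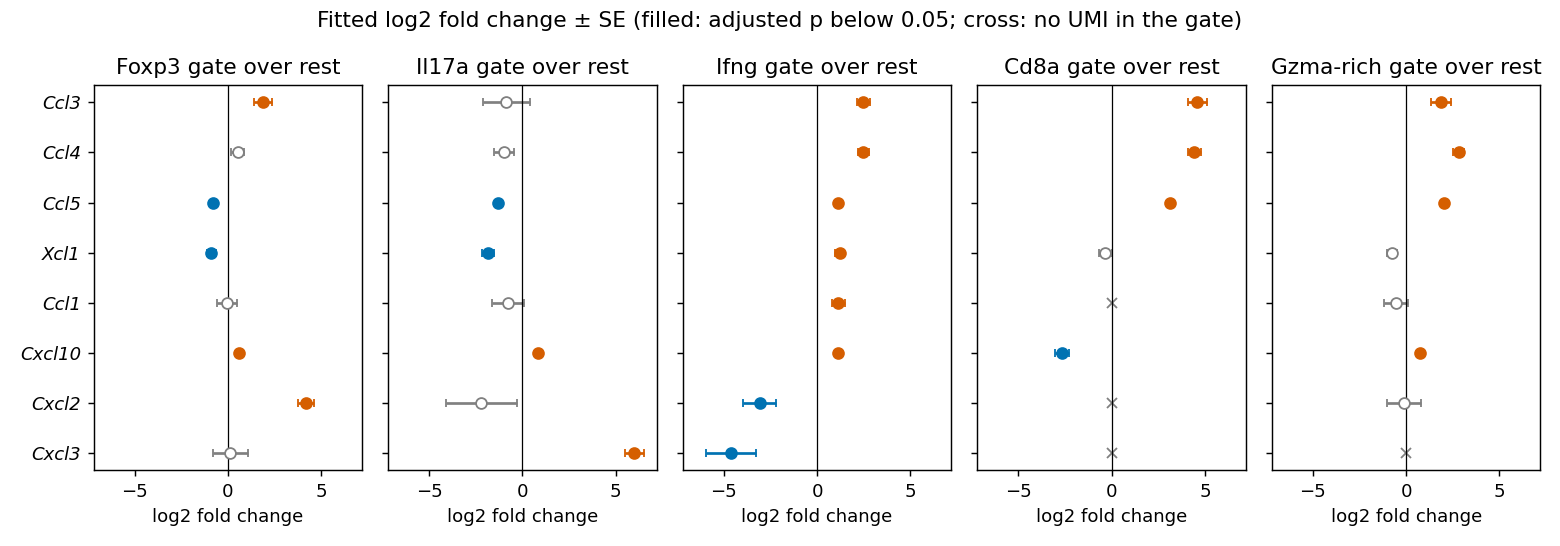
Fitted log2 fold change with its SE for 8 chemokines in each gate over the rest gate; filled points have an adjusted p below 0.05 and a cross marks a gene with no UMI in the gate. In the Ifng gate 6 genes are higher, and Cxcl2 and Cxcl3 each have their highest fold in 1 gate.

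Xcl1, the Xcr1 ligand, was highest in cells with Ifng. It had 485, 723, 592 and 617 CPM in the Ifng gate, against 238, 258, 237 and 294 CPM in the rest gate, and the 2 gates did not overlap. The other gates stood at 244 ± 97.7 CPM (Cd8a), 155 ± 53.3 (Gzma-rich), 141 ± 67.8 (Foxp3) and 56.1 ± 36.8 (Il17a), and of these neighbours Foxp3 and Il17a differed (adjusted p = 0.0468, edgeR), while Foxp3 and Gzma-rich, where 26.0% of all genes were called, did not pass the test. At 2000 UMIs, 33.8% ± 3.14 of Ifng cells held Xcl1, against 5.55% ± 1.84 of Il17a cells and 4.86% ± 1.87 of Foxp3 cells. These last shares were below that of the B-lineage cells.

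Ccl1, the Ccr8 ligand, had 5.13, 27.5, 14.1 and 57.6 CPM in the Ifng gate, against 7.14, 10.8, 6.97 and 16.8 CPM in the rest gate. Libraries 2 to 4 were higher and library 1 was lower, so the gates overlapped. Of its 1442 UMIs, 56.0% were in Ifng cells and 33.0% in rest-gate cells.

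In the Ifng gate over the rest gate all 8 chemokines tested were called, 6 higher and 2 lower, where 9.70% of all genes were called, 5.0% higher and 4.69% lower. With edgeR's robust prior, an alternative added after seeing the data, 5 were called, and Ccl1, Cxcl2 and Cxcl3 were not. Ccl4 was higher by 2.49 ± 0.29, Xcl1 by 1.21 ± 0.23, Cxcl10 by 1.15 ± 0.12, Ccl1 by 1.14 ± 0.33 and Ccl5 by 1.10 ± 0.13 on the log2 scale (edgeR, adjusted p between 3.17e-07 and 0.0295). Ccl3 had a fitted log2 fold change of 2.49 ± 0.35. It is among the 8 but had passed the filter through gates where it was high, this one included. Its fold is thus a description. Of the 6 genes called higher, Ccl1 was higher in 3 of 4 libraries and the others in 4 of 4. By the gate order, 267 of the 601 cells with a Cd8a UMI lay in the Ifng gate and 0 in the rest gate. Of the 601 cells, 333 held Ccl4. Their part in these folds was not tested. The Ccl1 call was lost without library 2, 3 or 4, without the cell richest in it in each library (log2 fold change 0.58, adjusted p = 0.390), at a common depth, without the block, with the robust prior and under DESeq2, and the Xcl1 call under DESeq2 (adjusted p = 0.0779). Cxcl2 and Cxcl3 had log2 fold changes of -3.08 ± 0.90 and -4.59 ± 1.34 (adjusted p = 0.0303 and 0.0336, edgeR). They rested on 15 and 1 UMIs in Ifng cells, against 199 and 69 in the rest gate, where 56 of the Cxcl3 UMIs were in 1 cell. Both calls were lost without library 4, without the block, with the robust prior and under DESeq2, and the Cxcl2 call also without library 3 and at 5% mitochondrial UMIs (adjusted p between 0.0516 and 0.328). Neither is read as a difference. With the Ifng gate taken before the Il17a gate, the Cxcl3 value was 1.46. Of the 18 TCR-induced genes, 8 were higher and 1 lower in the Ifng gate, with a median log2 fold change of 0.29 against 0.0025 for all genes.

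Cxcl10, the interferon-inducible Cxcr3 ligand, was spread more evenly. It had 322, 333, 284 and 223 CPM in the Ifng gate, 235, 223, 251 and 174 CPM in the Gzma-rich gate and 44.1, 8.75, 11 and 18.2 CPM in the Cd8a gate, against 178, 140, 99.2 and 105 CPM in the rest gate. The Il17a gate averaged 214 ± 42.8 CPM and the Foxp3 gate 190 ± 42.3 CPM. No test passed between neighbours among the Ifng, Gzma-rich, Il17a and Foxp3 gates, where 19.8% of all genes were called in Il17a over Gzma-rich, while all 4 were above the rest gate and the Cd8a gate was below it.

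Cxcl2, a neutrophil attractant, was found mostly in Foxp3 cells. It had 58.7, 32.8, 143 and 79.0 CPM in the Foxp3 gate, against 0.588, 11.2, 2.96 and 2.85 CPM in the rest gate, and every Foxp3 value lay above every value of any other gate. Of its 913 UMIs in 120 cells, 73.3% lay in 67 Foxp3-gate cells, spread as 18, 16, 19 and 14 cells over the libraries. At 2000 UMIs, 3.37% ± 0.559 of Foxp3 cells held it (2.72% to 3.95%), against 0.246% ± 0.0993 of rest-gate cells. The richest Foxp3 cell of each library held 87, 35, 105 and 73 UMIs.

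In the Foxp3 gate over the rest gate, 5 of 8 chemokines were called, where 32.4% of all genes were called. A count of 5 of 8 is thus not read as particular to the chemokines. Cxcl2 had a fitted log2 fold change of 4.21 ± 0.43, with all 4 libraries in that direction and 2.65 to 5.47 under the alternatives. It is among the 5 but had passed the filter through this gate. Cxcl10 was higher by 0.59 ± 0.13 (adjusted p = 0.00104, edgeR). Ccl5 fell by 0.83 ± 0.13 and Xcl1 fell by 0.88 ± 0.26 (adjusted p = 1.26e-05 and 0.00952, edgeR), the Xcl1 call being lost under DESeq2 (0.164) and without the block (0.0535). Ccl3 was called higher (log2 fold change 1.88 ± 0.49), with 2 of 4 libraries in that direction, but had passed the filter in part through this gate. Without library 4 its log2 fold change was 0.01 (adjusted p = 0.990), without the richest cell of each library 0.56 (0.415), and at a common depth of 2000 UMIs -0.03.

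Foxp3 cells with Cxcl2 held several genes more often than Foxp3 cells without it. At 2000 UMIs, 86.0% of the 50 Foxp3-gate cells with Cxcl2 held Areg, a tissue-repair growth factor, against 60.2% of the 1456 without (50% to 66.7% by library). For Klrg1, an inhibitory receptor of effector cells, the shares were 72% and 45.1%, for the IL-33 receptor Il1rl1 32% and 18.1%, and for the opioid precursor Penk 28.0% and 15.6%. Each was higher in 4 of 4 libraries. Ikzf2 was found in 66.0% against 75.8%, and Xcl1 and Ifng in none of the 50 cells against 4.81% and 6.52%. These companion genes were chosen after their values were seen, and with 50 cells no test was made.

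**Figure D3:**
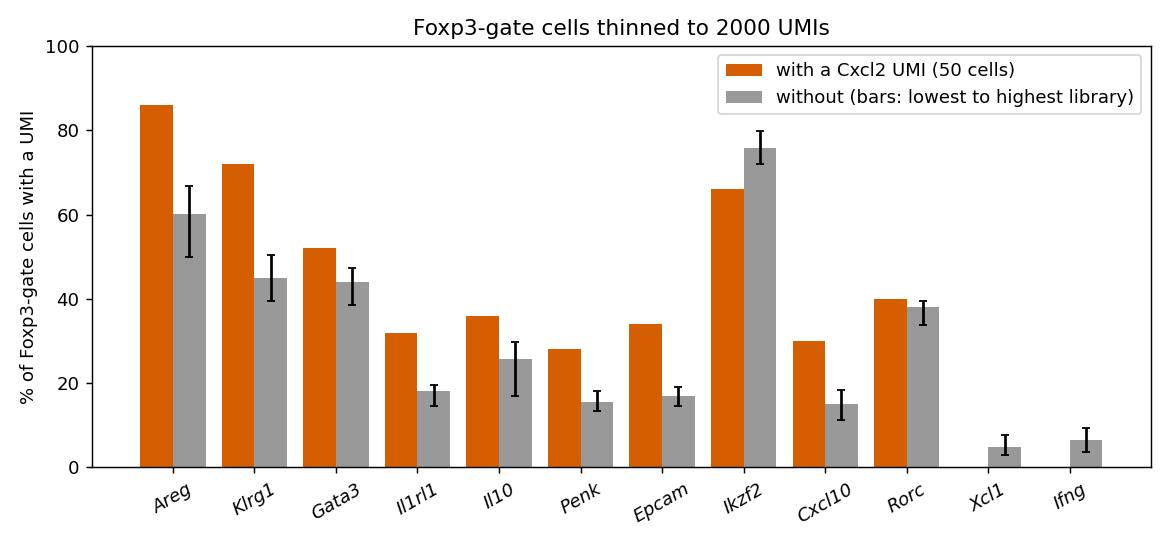
Share of Foxp3-gate cells with a UMI of each gene at 2000 UMIs, for the 50 cells with Cxcl2 and the 1456 without; bars on the latter span the lowest and highest library. Areg, Klrg1, Il1rl1, Penk, Epcam and Cxcl10 are more frequent in the cells with Cxcl2.

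The epithelial marker Epcam also moved with Cxcl2: 34.0% of those 50 cells held it, against 17.0% of the others. Over all cells, Epcam was found in 493 Foxp3-gate cells (32.1% of them) and in 4.57% of the other gates' cells. The other epithelial markers were rarer but also more frequent in the Foxp3 gate than in the other gates. Krt18 was found in 45 Foxp3-gate cells (2.93% against 0.696% of the others' cells) and Lgals4 in 15 (0.977% against 0.641%), while Fabp2, Apoa1 and Krt8 were found in 4, 2 and 1. Of the 120 cells with Cxcl2, 8 held Krt18 and 49 Epcam. The 6 markers summed to 85.2 to 113 CPM there, against 17.1 to 30.7 CPM in the rest gate. With all cells holding a marker of another cell type left out, the Cxcl2 level over all cells was 4.52 ± 1.13 CPM in place of 9.58 ± 3.80. The 5 B cell markers summed to 37.5 to 45.1 CPM in the Foxp3 gate, against 8.12 to 11.6 CPM in the rest gate. Myeloid markers (8 of 10 detected) summed to 13.4 to 42.1 CPM in the Foxp3 gate, against 21.9 to 43.8 CPM in the rest gate. At full depth, 14.2% of cells with Cxcl2 held a myeloid UMI, against 3.93% of cells without. At 2000 UMIs, 10.6% of them held Lyz2 and 8.24% C1qa, against 0.503% and 0.445% of cells without. The part of other cell types in the Cxcl2 level was not tested beyond this.

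Cxcl3, the close relative of Cxcl2, was found instead in cells with Il17a. It had 85.2, 71.1, 227 and 3.08 CPM in the Il17a gate, against 5.29, 0.0874, 0.478 and 0 CPM in the rest gate. Library 4 had 1 such cell with 3 UMIs and fell below the rest-gate value of library 1. Of its 399 UMIs, 78.9% were in 15 Il17a-gate cells, and single cells with 86, 28, 103 and 3 UMIs were the richest of the 4 libraries. Against the Gzma-rich gate, where it had no UMI, it was at least 213-fold higher in the Il17a gate (floor of 3 UMIs over the gate). Without library 3, where 103 of 115 UMIs were in 1 cell, this bound was 90.1-fold. The floor takes UMIs as independent, although few cells held them, so the size of the bound is not read. Cxcl2 had 3 UMIs in the Il17a gate and Cxcl3 14 in the Foxp3 gate, and no thinned cell held both.

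In the Il17a gate over the rest gate, 4 of 8 chemokines were called, where 25.0% of all genes were called. Cxcl3 had a fitted log2 fold change of 6.00 ± 0.51, with all 4 libraries in that direction. It is among the 4 but had passed the filter through this gate, and it passed in 9 of the 17 alternatives, at 5.06 to 6.82. Cxcl10 was higher by 0.82 ± 0.15, Ccl5 fell by 1.30 ± 0.14 and Xcl1 fell by 1.86 ± 0.33 (edgeR, adjusted p between 1.03e-07 and 0.000145). Of all genes, 1426 were higher and 973 lower in this gate, against 1163 and 1306 when scaled by library size alone. At 2000 UMIs, 4 of the 7 Il17a-gate cells with Cxcl3 held Il22, which acts on the epithelium, against 21% of the 567 others. Over all gates, 5 of 13 cells with Cxcl3 held Il22, and its share was higher than without Cxcl3 in 2 of 4 libraries. Il22 was chosen here after its values were seen, and with so few cells no test was made.

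Ccl20, the Ccr6 ligand made mainly by epithelium, was near the floor. Its 30 UMIs comprised 9 in the Il17a gate (8 in 1 cell), 5 in the Foxp3 gate, 1 in the Ifng gate and 15 in the rest gate, 12 of these in 1 cell of library 1. No UMI was found in the Cd8a and Gzma-rich gates.

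Among 28 other chemokine ligands, few stood above 1 CPM. Ccl25, known as the homing signal of small intestine epithelium, stood at 10.1 ± 0.656 CPM, Ccl27a at 4.43 ± 0.374, Cxcl9 at 1.51 ± 0.461 and Cxcl16 at 1.21 ± 0.529, and the others with a value were below 1 CPM. Ccl19, Ccl21a and Cxcl11 could not be matched to 1 row and are given no value. Of the 2 that passed the filter, none was called in any gate over the rest gate. Some receptors of the chemokines were measured as well. Cxcr3 stood at 221 ± 22.1 CPM, Ccr8 at 50.3 ± 10.6, Ccr6 at 21.5 ± 4.59, Xcr1 at 10.7 ± 5.35, Ccr1 at 2.49 ± 0.493 and Cxcr2 at 0.0495 ± 0.0374. Ccr8 was highest in the Foxp3 gate (228 ± 38.4 CPM, against 42.5 ± 6.35 CPM in the rest gate) and Ccr6 in the Il17a gate (109 ± 25.4 against 26.4 ± 6.22 CPM).

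Chemokines were found together more or less often than the product of their shares within library and gate. Ccl3 and Ccl4 shared 151 cells where the product gives 38.6, with ratios of 5.03, 3.98, 4.50 and 3.53 in libraries 1 to 4 (4.26 ± 0.652). Those cells were 61.4% of the cells with Ccl3 and 9.61% of those with Ccl4. Ccl1 and Xcl1 shared 65 cells where the product gives 31.0 (2.10 ± 0.234), and Cxcl10 and Cxcl2 shared 25 where it gives 11.2 (2.32 ± 0.564). Ccl4 and Cxcl10 were found together less often, 120 cells against 183 (0.650 ± 0.0883), as were Ccl1 and Ccl5, 52 against 80.6 (0.633 ± 0.0961). Xcl1 and Cxcl2 shared 3 cells where the product gives 10.6. For these 6 pairs all 4 libraries lay on the same side of 1. Ccl4 and Xcl1 did not depart from the product, at 0.998 ± 0.0830. The ratios are a description of sparse counts, without a test.

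**Figure D4:**
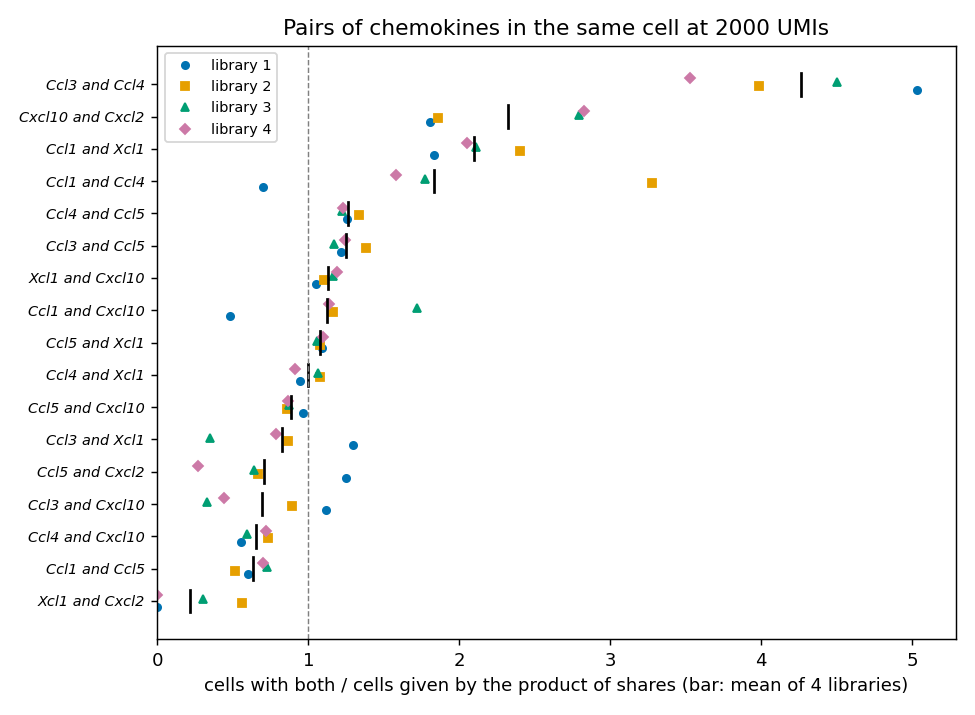
Cells that hold both chemokines of a pair, divided by the number given by the product of their shares within library and gate, at 2000 UMIs; each symbol is 1 library, the bar is the mean and the dashed line marks 1. Ccl3 with Ccl4 lies furthest to the right and Xcl1 with Cxcl2 furthest to the left.

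Across the 24 sums of 4 libraries and 6 gates, the genes whose level ran most like Ccl5 were Dapk2 (Pearson r = 0.98) and Ncf1 (0.97), and those most like Ccl4 were Dapk2 (0.94) and Nkg7 (0.93), a cytotoxic granule protein. Ccl3 was closest to Ccl4 (0.89), Cxcl10 to Gadd45b (0.92) and Junb (0.90), and Cxcl2 to Fam46a (0.92), Rln3 (0.91) and Klrg1 (0.90). Cxcl3 had 0.84 with Il17a, the gate's own gene. Xcl1 reached 0.77 with Trim12a, Ccl1 0.76 with Tmem154 and Ccl20 0.68 with Sept9. The sums share libraries and gates, so these values carry no p.

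For 6 of the chemokines, cells with a UMI were compared with cells without one in the same library, all at 2000 UMIs, over every gate together (edgeR, 8 sums, 3 residual degrees of freedom). Ccl20, Cxcl3 and Cxcl2 had too few cells, under 20 in a library. Cells with and without a chemokine also differ in their gates, which enters each of these comparisons. In the Ccl1 and Ccl3 fits edgeR's prior on the spread had infinite degrees of freedom, so a gene's own spread over libraries carried no weight there. List counts are therefore given with the robust prior as well where it changed them.

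Cells with Ccl1 were higher in TCR-induced genes and in several cytokines. Of the 18 TCR-induced genes, 13 were higher and 0 lower, where 3.36% of all genes were called. Of the 13 tissue-dissociation stress genes, 4 were higher and 1 lower, and both plasma cell markers tested (Igha and Jchain) were lower; the part of dissociation was not tested. Crtam, an adhesion receptor of activated T cells, had 279 ± 203 CPM in cells with Ccl1, against 4.42 ± 1.00 CPM without (log2 fold change 5.75 ± 0.37), and the costimulatory receptor Tnfrsf9 797 ± 245 against 127 ± 36.3 CPM (2.47 ± 0.17). Of 13 helper cytokines tested, 8 were higher: Csf2, Il2, Il4, Il21, Lta, Ifng, Areg and Tnfsf11. Il2, the T cell growth factor, stood at 251 ± 101 against 50.5 ± 5.49 CPM and Csf2, a myeloid growth factor, at 149 ± 210 against 1.69 ± 0.505 CPM, higher in 3 of 4 libraries. Xcl1 stood at 3789 ± 1947 against 302 ± 31.5 CPM (3.37 ± 0.11), and Ccl5 at 1738 ± 587 against 3964 ± 934 CPM (log2 fold change -1.37 ± 0.10). Slc30a3, Nrgn, Cnih2 and Socs2, a feedback inhibitor of cytokine signals, were higher by 7.25, 5.24, 4.45 and 2.80. Acod1 was called too (2.77), but lost the call without any 1 library. Cdadc1, Lpp and Cd8a had no UMI in the 120 cells with Ccl1, and their calls were lost without any 1 library. The 3-UMI floor would put them at least 2.38-, 2.23- and 2.02-fold lower, but it takes UMIs as independent. The median of all genes was -0.29.

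Cells with Ccl3 were marked by killing genes, 5 of 6 being higher where 2.13% of all genes were called, and 4 with the robust prior, without Gzma. Gzmb had 3032 ± 741 CPM in cells with Ccl3, against 995 ± 50.6 CPM without, and Gzmk 422 ± 193 against 117 ± 19.2 CPM. Eomes, a factor of cytotoxic and memory cells, was higher by 4.06 ± 0.47, and Ccl4 had 3803 ± 1059 against 159 ± 45.5 CPM. The adaptors Tyrobp (162 ± 131 against 7.36 ± 1.86 CPM) and Fcer1g (97.1 ± 60.3 against 6.14 ± 0.812 CPM), Mpeg1 and Aif1 were higher too, all 4 being common in myeloid cells. Plcg2 had 22.3 ± 6.99 against 2.48 ± 1.11 CPM. Il22 had 2.23 ± 4.46 against 74.0 ± 48.3 CPM, and Epas1 and Tnfrsf25 were lower by 3.25 and 3.19 on the log2 scale (log2 fold changes -3.25 and -3.19). Of the 5 myeloid markers tested, 4 were higher in cells with Ccl3 (Lyz2, C1qa, C1qb and C1qc), Lyz2 at 144 ± 193 against 6.36 ± 0.980 CPM, and both plasma cell markers tested. With the robust prior the Lyz2, Igha and Jchain calls were lost (adjusted p = 0.138, 0.803 and 0.949, edgeR), Igha and Jchain being higher in 1 of 4 libraries. At full depth, 12.1% of cells with Ccl3 held a myeloid UMI, against 3.84% of cells without. With all cells holding a marker of another type left out, Tyrobp, Fcer1g, Mpeg1 and Aif1 were still called. The Aif1 call was lost without any 1 library, the Plcg2 call without library 3 or 4 and the Epas1 call without library 4.

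Cells with Ccl4 were also marked by killing genes. All 6 killing genes were higher, where 8.78% of all genes were called, Gzmb at 3098 ± 473 CPM in cells with Ccl4 against 842 ± 30.4 CPM without. Cd8a stood at 139 ± 78.0 against 14.5 ± 11.4 CPM, Cd244, a receptor of killer cells, at 33.3 ± 8.97 against 4.58 ± 2.63 CPM and Eomes at 21.7 ± 11 against 3.36 ± 2.21 CPM. Tyrobp was higher by 2.86 ± 0.26. Of the other types' markers, 1 of 5 myeloid and 1 of 2 plasma cell markers were higher, the plasma one (Igha) not with the robust prior, and Epcam was lower. At full depth, 6.31% of cells with Ccl4 held a myeloid UMI, against 3.73% of cells without. Their part in these differences was not tested. Lower were Il22 (4.33 ± 6.88 against 78.2 ± 49.8 CPM), the lymph node homing receptor Ccr7 and Cd83, and 7 of 12 helper cytokines (6 with the robust prior) against 3 higher (Ifng, Tnf and Il21). Klk1 and Siglech topped the list, but each was found in 12 cells, 11 of them shared, of which 6 with Klk1 lay in the Cd8a gate. Within the rest gate alone 248 genes were called in place of 892.

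Cells with Ccl5 differed from the others over 22.2% of all genes. The 6 killing genes were higher, with Gzma at 2370 ± 258 CPM in cells with Ccl5 against 618 ± 104 CPM without and Gzmb at 1347 ± 100 against 377 ± 50.1 CPM, as were Cd8a, Gzmk, Cd7 and the collagen-binding integrin Itga1 (46.7 ± 4.92 against 13.1 ± 1.03 CPM). Klrg1 was lower at 13.3 ± 3.23 against 171 ± 50.4 CPM, with Ccr7 at 5.42 ± 2.24 against 78.3 ± 37.7 CPM and Igfbp4 at 0.730 ± 0.394 against 43.6 ± 17.1 CPM. Of 13 helper cytokines 10 were lower (8 with the robust prior), among them Il17a, Il10 and Areg, and Ifng and Tnf were higher. Of the 18 TCR-induced genes 2 were higher and 9 lower, and of the 10 interferon-response genes 6 were higher (5 with the robust prior). Of the 13 stress genes 1 was higher and 6 were lower (4 with the robust prior), and Epcam, Lyz2, Igha, Jchain, 1 B cell marker and 1 stromal marker were lower, Igha not with the robust prior. Within the rest gate alone 1229 genes were called in place of 2307.

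Cells with Xcl1 were higher in Il12rb2, the IL-12 receptor chain of Th1 cells, at 454 ± 64.4 CPM in cells with Xcl1 against 137 ± 18.6 CPM without. Of the 18 TCR-induced genes 11 were higher and 3 lower (10 and 2 with the robust prior), where 13.0% of all genes were called. Of the 13 stress genes 4 were higher and 0 lower, and their part was not tested. Epcam was lower. Gadd45g (181 ± 30.9 against 71.4 ± 1.78 CPM), Serpina3f, the antiviral proteins Ifitm3 and Ifitm2, and Myo6 were higher by 1.31 to 1.86 on the log2 scale. Klrg1 (5.19 ± 1.52 against 85.9 ± 28.4 CPM), Foxp3 (4.96 ± 0.405 against 43.9 ± 12.6 CPM) and Il17a (15.3 ± 10.2 against 125 ± 50.7 CPM) were lower. Killing genes were divided, with Nkg7, Prf1 and Klrd1 higher and Gzmb and Gzma lower. Within the rest gate alone 554 genes were called in place of 1327.

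Cells with Cxcl10 were higher in all 10 interferon-response genes, where 9.05% of all genes were called. Ifit1 had 87.0 ± 26.8 CPM in cells with Cxcl10 against 28.1 ± 7.39 CPM without, Isg15 478 ± 17.2 against 267 ± 14 CPM and Ifit3 38.1 ± 21.8 against 7.73 ± 4.07 CPM. Rsad2, Mx1 and Cmpk2, antiviral effectors, were higher by 2.49, 2.23 and 1.79. Il21, a cytokine that helps B cells, had 61.1 ± 16.8 against 17.0 ± 3.89 CPM, Ifng 725 ± 176 against 253 ± 15 CPM and the kinase Fes 94.4 ± 16.2 against 30.3 ± 10.1 CPM. Cd8a, Car2 and the egress receptor S1pr1 were lower (log2 fold changes -2.57, -1.09 and -1.0). Of the 18 TCR-induced genes 12 were higher (10 with the robust prior) and 1 lower, and of the 13 tissue-dissociation stress genes 8 were higher, Zfp36 at 615 ± 68.8 against 406 ± 42.0 CPM. The part of dissociation in these differences was not tested. Cxcl2 had 38.3 ± 27.7 against 4.70 ± 2.61 CPM, a call lost with the robust prior (adjusted p = 0.182, edgeR). Within the rest gate alone 360 genes were called in place of 934.

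**Figure D5:**
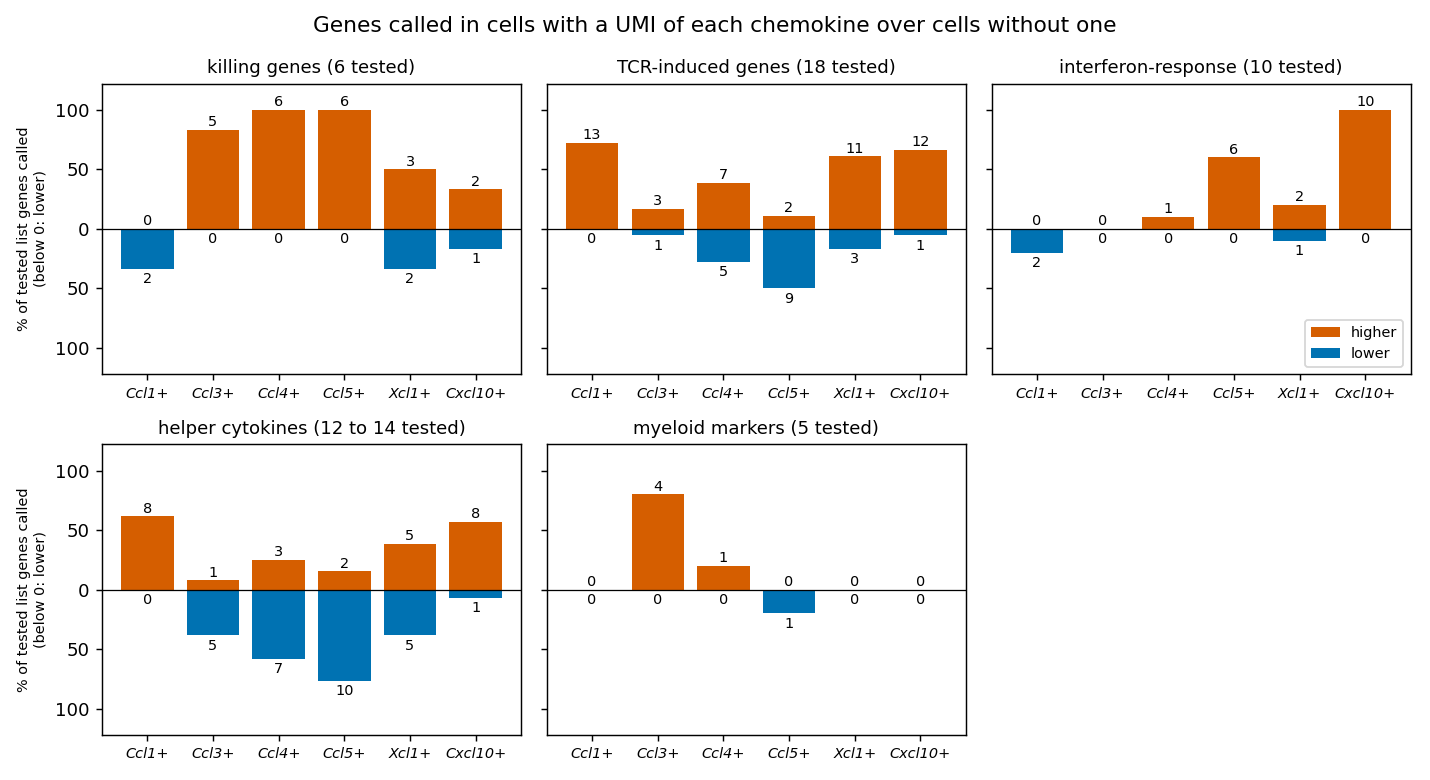
Share of the tested genes of 5 lists called higher (above 0) or lower (below 0) in cells with a UMI of each chemokine over cells without one; numbers on the bars count genes. Killing genes are higher with Ccl3, Ccl4 and Ccl5, TCR-induced genes with Ccl1, Xcl1 and Cxcl10, and all interferon-response genes with Cxcl10.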

How the data were processed

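Single-cell RNA was measured with the Chromium 5′ chemistry in 4 libraries of sorted CD4 T cells. What the authors deposited are raw UMI counts, 1 matrix for each library. The submitters' processing notes name Cell Ranger 3.0.2 and the mm10 build. No barcode held fewer than 502 UMIs, and the libraries summed to 28783972, 26407082, 23918884 and 26681150 UMIs.

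Cells needed at least 500 genes, 1000 UMIs and at most 10% mitochondrial UMIs (22534 kept). Doublets were scored with Scrublet (scanpy 1.11.5), and 0.8% of cells per 1000 barcodes were dropped, by score (1033 cells). UMIs were summed per library and gate, and 24 sums entered 1 edgeR 4.0.16 quasi-likelihood fit (TMM, filterByExpr, library as a block, Benjamini-Hochberg at 0.05). SE is the log2 fold change over the root of F. The library is a true block, since all gates come from the same libraries. For cells with and without a UMI of a chemokine, and for shares, cells were thinned to 2000 UMIs, which leaves shallower cells out. R 4.3.3 and DESeq2 1.42.0 were used. On data simulated from the real sums with known changes, the Ifng gate fit recovered 97.5% of 2-fold and 100% of 4-fold changes (9455 genes tested), the Cd8a gate fit 53.8% and 89.7% (9451 genes) and the Ccl4 fit 66.0% and 96.7% (10227 genes). The simulation gave every gene the same fixed spread and had no library effect. These rates therefore do not carry over to chemokines that spread more between libraries, such as Ccl1. Intervals and floors cover counting error only, and floors take UMIs as independent.

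The chemokines and lists were chosen with earlier results of these data known. Named genes of a comparison between cells with and without a chemokine were, of those called and changed alike in 4 of 4 libraries, the 6 that rose most and the 3 that fell most, with at least 20 CPM on 1 side, without predicted, receptor, ribosomal and mitochondrial genes. From the lists, the genes with the smallest adjusted p were added, and other list members were named after their values were seen. Some genes of the lists are not reported here. Gene IDs of the GRCm38 annotation matched for 30934 of 31053 genes and promoters for 7 of 9 chemokines. Alternatives left out libraries, doublet removal, the block, the filter or cells with other types' markers, or changed thresholds, gate order, depth, scaling or tool. Those without the richest cells or the Cd8a gate and the one with edgeR's robust prior were chosen after seeing the data.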

Additional observations from a re-analysis of the deposited data

Results flagged for a closer look

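In 10 of 63 groups of 4 libraries with any value, 1 library lay far from the other 3 by Dixon's criterion, which chance alone reaches in about 1 in 20 groups of continuous values. In 3 of the 10 the other libraries were all at 0, so that any UMI meets the criterion and that rate does not apply. Library 4 was the high one for 5 of them. Ccl4 had 225 CPM in its Foxp3 gate, against 18.8 to 50.9 CPM in the others, and 676 CPM in its Gzma-rich gate, against 265 to 319 CPM. Ccl3 had 44.1 CPM in its Foxp3 gate, against 2.34 to 2.87 CPM, and Ccl1 26.7 CPM in its Gzma-rich gate, against 0.654 to 2.86 CPM, where 40 UMIs came from 1 cell. The Cd8a gate held 3.15% of its cells, against 0.826% to 1.07%.

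The others rest on few UMIs. In library 1, Cxcl3 had 5.29 CPM in the rest gate, with 56 UMIs in 1 cell, against 0 to 0.478 CPM, and Ccl20 had 1.18 CPM in the rest gate, with 12 UMIs in 1 cell, against 0 to 0.0862 CPM. Ccl3 had 3.63 CPM in the Il17a gate of library 1 (6 UMIs in 2 cells) and was at 0 in the others. Cxcl3 had 0.117 CPM in the Ifng gate of library 1 and Ccl20 0.138 CPM in the Ifng gate of library 2, each from 1 UMI.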

How the results depend on the processing

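Of the chemokine folds between gates, 572 alternative values kept their direction and side of the threshold, 31 lost the call, 24 gained it and 13 turned round. For the log2 folds in cells with a chemokine the counts were 545, 64, 0 and 5. Calls of Ccl3, Ccl4 and Ccl5 in the Cd8a gate and of Cxcl10 in every gate held in all 17 alternatives, of which the fit with no filter is no usable test. Ccl3 had passed the filter through gates where it was high, the Cd8a gate among them. The cause of the changes that follow was not tested.

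In the Foxp3 gate, the Ccl1 log2 fold change turned to 0.26 without cells holding other types' markers, 0.25 without the richest cells and 0.18 under DESeq2, and it ran between -0.66 and 0.50 with 1 library left out. Ccl3 was -0.026 and Ccl4 -0.49 at 2000 UMIs. With 1 library left out, Ccl4 ran between -0.34 and 0.97 and Cxcl3 between -0.25 and 0.084 there, Xcl1 in the Cd8a gate between -0.55 and 0.13, and Ccl4 in cells with Ccl1 between -0.62 and 1.62. Cxcl3 turned to 1.46 in the Ifng gate with that gate taken before Il17a and to 0.18 in the Cd8a gate under DESeq2, and Cxcl2 to 0.11 in the Gzma-rich gate at 5% mitochondrial UMIs. In the rest gate alone, Ccl4 was -3.00 in cells with Ccl1, Ccl1 -2.38 and Cxcl2 0.33 in cells with Ccl4, and Cxcl10 -0.16 in cells with Xcl1, and 248, 1229, 554 and 360 genes were called for Ccl4, Ccl5, Xcl1 and Cxcl10.

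At 2000 UMIs, the genes called in the Foxp3, Il17a, Cd8a and Gzma-rich gates were 1673, 621, 569 and 862, in place of 3110, 2399, 911 and 1301. Without the library block, which pairs the gates of a library, 359 genes were called in the Ifng gate and 779 in the Gzma-rich gate, with 3 chemokines in the Foxp3 gate and 5 in the Ifng gate. Under DESeq2 these were 3 and 4 chemokines, and with the robust prior 5 in the Ifng gate. With no filter on low counts the prior had infinite degrees of freedom (adjusted p of Cxcl2 in the Foxp3 gate 1.88e-206), so its calls support nothing. It called 8 chemokines in the Il17a gate, where 13.6% of 18363 genes were called, and 7 in the Cd8a gate, where 7.05% were; the median of all genes moved by -0.15 and -0.21, and the share of calls that were higher was 43.7% in place of 55.6% in the Gzma-rich gate and 48.7% in place of 59.4% in the Il17a gate. With 1 library left out, 1593 to 2054 genes were called in the Il17a gate, and 183 to 315, 114 to 192 and 592 to 751 in cells with Ccl1, Ccl3 and Ccl4, with 5 to 7 chemokines in the Ifng gate.

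Without cells holding other types' markers, Cxcl2 stood at 4.52 CPM. With no thinning, 0.911% of cells held Ccl1, 72.9% Ccl5, 0.0511% Ccl20, 31.3% Xcl1, 16.8% Cxcl10, 0.147% Cxcl3 and 0.557% Cxcl2, and at 1500 UMIs 20.3% held Xcl1. With no thinning, the pair ratios were 0.769 for Ccl1 with Ccl5, 1.83 for Ccl1 with Xcl1, 1.19 for Ccl4 with Ccl5, 1.10 for Ccl5 with Xcl1 and 0.507 for Xcl1 with Cxcl2. The 5 rare chemokines rest on few cells.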

Other observations

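Klk1, a kallikrein protease, and Siglech, a lectin best known from plasmacytoid dendritic cells, marked a rare set of cells. Each was found in 12 of 21501 cells and 11 cells held both, with up to 92 UMIs of Klk1 and 41 of Siglech in 1 cell. The 12 cells with Klk1 were spread as 4, 3, 4 and 1 over libraries 1 to 4. Of these, 6 lay in the Cd8a gate, 2 in the Ifng gate and 4 in the rest gate, and 11 held Ccl4. These genes were singled out after their values were seen, and no test was made.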
